A study of Mus musculus with 9 samples.

Results

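Car9, Car12, Slc16a1, Slc16a3 and Bsg, 5 genes of lactate export and pH regulation, were followed across cultured synovial fibroblasts of the mouse paw. They are 5 of the 47729 genes in the deposited table, and all 5 were among the 15623 genes with enough signal to be tested. The genes were chosen by function and with the rlog values of these same libraries in view, those of all 3 groups included, so every contrast between the groups counts as used in the choice. Their levels and differences are therefore a description, and the p-values, taken from a fit across all genes, are no independent evidence of a direction.

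All 9 libraries came from wild-type BALB/c mice, from cells freed from paws with collagenase and grown for 5 passages. Monosodium urate (MSU), the salt whose crystals form in gouty joints, was the injected agent. For the primed group (3 libraries) the left paw received crystals at day 0 and a further dose at day 9. For the non-primed group (3 libraries) the right paw received them once, at day 9. The naive group (3 libraries) stands for paws that were never injected. Extraction was at day 18 for all 9 libraries. Since the primed paws were left and the non-primed paws right, paw side and priming cannot be told apart. The labels do not tie cultures to animals, and a primed and a non-primed culture may come from the same mouse, so a p-value here speaks only of the spread among the sampled cultures, which may be technical. The comparisons ask how cells from injected paws differ from those of naive paws, and what an earlier crystal injection adds.

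Cells that break down glucose by glycolysis release lactate together with protons. Slc16a1 encodes MCT1 and Slc16a3 encodes MCT4, monocarboxylate transporters that carry lactate and a proton across the plasma membrane, MCT4 being the form typical of cells that export lactate. Bsg encodes basigin (CD147), the chaperone that brings both transporters to the cell surface. Car9 and Car12 encode membrane-bound carbonic anhydrases whose catalytic domain faces outwards and converts carbon dioxide and bicarbonate into each other near the cell surface. Car9 and Slc16a3 are known targets of hypoxia-inducible factor (HIF).

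All 5 genes lie on the plus strand of GRCm38, in the GENCODE M21 annotation. Slc16a3 (ENSMUSG00000025161) spans chr11:120948480-120960868, Slc16a1 (ENSMUSG00000032902) chr3:104638668-104658462, and Bsg (ENSMUSG00000023175) chr10:79704491-79711969. Car9 (ENSMUSG00000028463) spans chr4:43506966-43513729 and Car12 (ENSMUSG00000032373) chr9:66713686-66766845. The 250 bases before the RefSeq start (build GRCm38.p6), found for 4 of the 5 members, all but Bsg, were searched for ACGTG and GCGTG, the core that HIF binds, on both strands (CACGT and CACGC on the other), with overlapping matches counted. Slc16a3 had 2 matches, Car9 had 1, Slc16a1 had 4 and Car12 had 0. Of all 32851 starts in the RefSeq table, 38.6% held at least 1 match, as did 54.0% of the 14095 starts of tested genes, so the letters are common and a match is not a site. The stretches with matches are shown because they hold those letters in a transporter gene that passed the threshold and also in its paralog that did not. Capitals mark the matches.
Slc16a3, chr11:120948817-120949052, up to the first annotated exon in the window: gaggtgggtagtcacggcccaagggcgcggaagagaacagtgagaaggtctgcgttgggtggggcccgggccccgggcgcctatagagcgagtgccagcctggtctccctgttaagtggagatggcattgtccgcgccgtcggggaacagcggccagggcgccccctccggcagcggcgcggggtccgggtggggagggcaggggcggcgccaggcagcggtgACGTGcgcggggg
Slc16a3, chr11:120949028-120949057, around both matches: caggcagcggtgACGTGcgcgggggACGTG
Car9, chr4:43506996-43507025, inside the first exon of GENCODE and before the RefSeq start: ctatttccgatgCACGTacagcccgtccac
Slc16a1, chr3:104638414-104638663: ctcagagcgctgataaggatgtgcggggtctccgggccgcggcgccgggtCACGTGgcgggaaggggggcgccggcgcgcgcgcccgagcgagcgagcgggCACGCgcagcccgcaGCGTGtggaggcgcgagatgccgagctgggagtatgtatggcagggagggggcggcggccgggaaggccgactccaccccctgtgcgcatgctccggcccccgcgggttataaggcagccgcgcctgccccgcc
Counted from the RefSeq start, the matches began at -27 and -14 in Slc16a3 and at -18 in Car9, and at -200, -199, -149 and -134 in Slc16a1. In Slc16a1 the letters CACGTG count as 2 overlapping matches. The Slc16a3 stretches lie inside the GENCODE span of the gene, which begins at 120948480, and the match at -14 lies inside a GENCODE exon.

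Values are rlog values, the authors' depth-scaled log2 counts, which draw weakly expressed genes towards their mean. The depth of the libraries is unknown. The naive libraries spread most, with a median SD over the tested genes of 0.14 in primed, 0.10 in non-primed and 0.22 in naive libraries. The 10 fibroblast markers had a mean of 13.56 to 14.00 in primed, 13.85 to 13.96 in non-primed and 13.50 to 14.22 in naive libraries. Among them, Vim was at 15.36 to 16.05 and Pdgfra at 14.96 to 16.25 over the 9 libraries. Prg4, on the same list, ran from 8.34 in naive 3 to 12.01 in naive 2. All 15 macrophage markers were also tested and none was at 0. Their mean was 9.46 to 10.68 in primed and 9.67 to 10.26 in non-primed libraries, and stood at 7.58 in naive 1, 9.73 in naive 2 and 7.26 in naive 3. Lyz2, the highest of them, lay above Vim in primed 1, primed 2 and naive 2 and below it in the other libraries. It was at 16.06, 16.53 and 15.30 in primed, 15.51, 16.00 and 15.76 in non-primed, and 13.09, 15.44 and 12.75 in naive libraries. In bulk RNA, fewer cells of a type and less RNA per cell cannot be told apart. None of the 7 markers of T, B and mast cells and neutrophils had enough signal to be tested.

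Slc16a3, the MCT4 gene, rose in cultures from injected paws over naive cultures. Its rlog was 12.46, 12.66 and 12.62 in primed libraries, 12.46, 12.68 and 12.51 in non-primed libraries, and 11.74, 11.52 and 11.30 in naive libraries. Every injected library lay above every naive one, and the primed and non-primed values overlapped. The difference was 1.06 for primed over naive cultures (SE 0.12, limma adjusted p = 0.0345) and 1.03 for non-primed over naive cultures (SE 0.12, limma adjusted p = 0.0303), or 2.08-fold and 2.04-fold. By p-value it ranked 5 and 6 among the 15623 genes in these comparisons, which share the naive libraries.

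**Figure D1:**
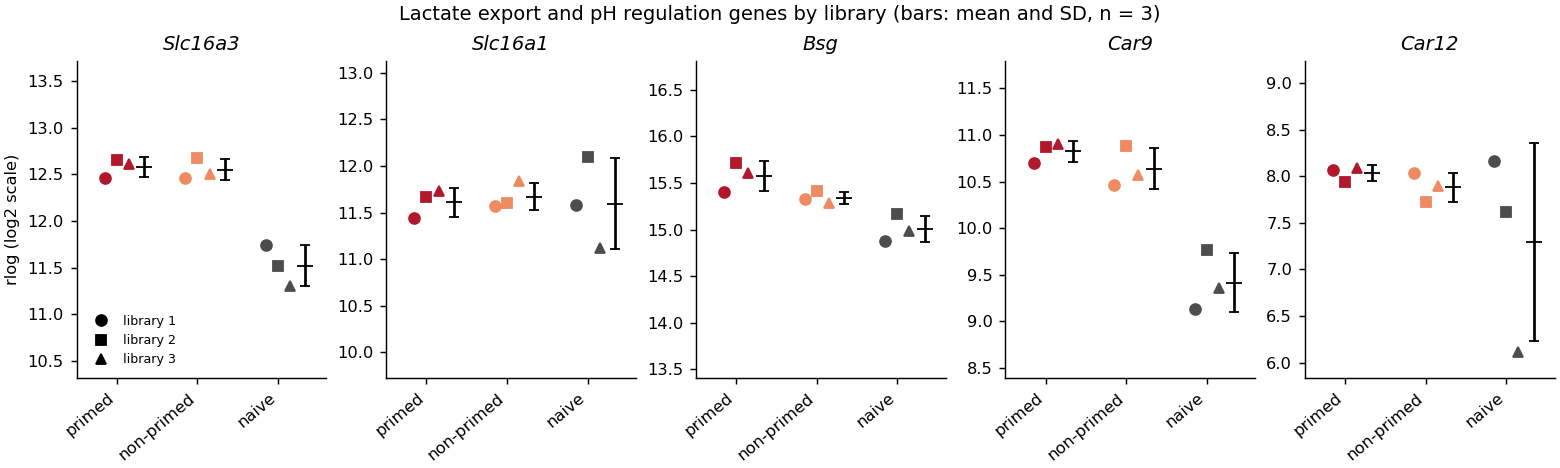
The rlog values (log2 scale) of the 5 genes in each library, with primed, non-primed and naive groups from left to right, marker shapes for library numbers, and bars for the mean and SD of 3 libraries. Slc16a3 and Car9 separate injected from naive libraries, Bsg does so by a smaller step, and Slc16a1 and Car12 overlap, with naive 3 at 6.11 for Car12.

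Slc16a1, the MCT1 gene, did not pass the threshold in any comparison. Its rlog was 11.44, 11.66 and 11.73 in primed libraries, 11.58, 11.60 and 11.84 in non-primed libraries, and 11.58, 12.09 and 11.12 in naive libraries. Naive 2 was the highest and naive 3 the lowest of all 9, so that the naive group enclosed the others. The difference was 0.01 for primed over naive cultures (95% interval -0.48 to 0.51) and 0.07 for non-primed over naive cultures (95% interval -0.42 to 0.57). A change of the size seen in Slc16a3 lies outside both intervals. A rise of up to 0.51 in primed or 0.57 in non-primed over naive cultures does not. The sign depended on the processing, and the difference was -0.46 and -0.36 with the macrophage marker mean as a covariate.

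Within a library, the balance of both transporter genes moved towards Slc16a3 in injected cultures. The rlog of Slc16a3 minus that of Slc16a1 was 1.03, 1.00 and 0.88 in primed libraries, 0.89, 1.08 and 0.67 in non-primed libraries, and 0.16, -0.57 and 0.18 in naive libraries. The injected and naive values did not overlap, and this difference within a library does not depend on how libraries are scaled by a constant. Per kilobase of annotated exon (5318 bases for Slc16a3 and 4426 for Slc16a1), the log2 level of Slc16a3 exceeded that of Slc16a1 by 0.70 ± 0.08 in primed and 0.62 ± 0.21 in non-primed libraries, and was below it by a mean difference of -0.34 ± 0.43 in naive libraries (SD, n = 3 each). The order of both genes differed between injected and naive cultures on the per-length scale, where the exon length taken sets the position of 0. The naive libraries were at -0.11, -0.84 and -0.08 on that scale, so naive 1 and naive 3 lay close to 0. No p-value is given for this balance, since it was formed from genes with known results.

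**Figure D2:**
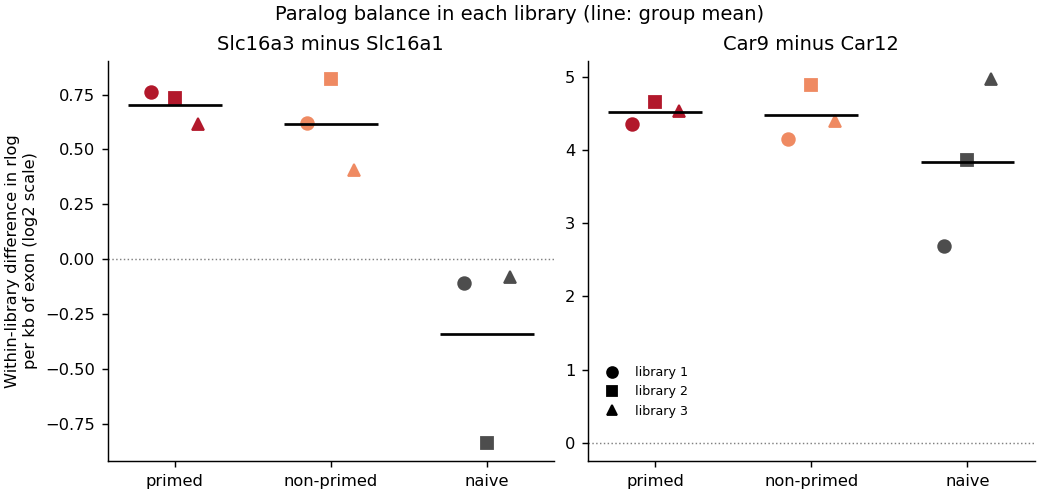
The within-library difference in rlog per kilobase of exon (log2 scale) of Slc16a3 minus Slc16a1, left, and of Car9 minus Car12, right, with 1 marker per library and a line at the group mean. All 6 injected libraries lie above 0 and all 3 naive libraries below it for the transporters, with naive 1 and naive 3 close to 0. The naive carbonic anhydrase values run from 2.69 to 4.97 and enclose the injected ones.

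Bsg, the chaperone gene of both transporters, was somewhat higher in cultures from injected paws but did not pass the threshold. Its rlog was 15.40, 15.72 and 15.61 in primed libraries, 15.32, 15.41 and 15.29 in non-primed libraries, and 14.88, 15.16 and 14.98 in naive libraries. All injected libraries lay above all naive ones, and primed 1 lay within the non-primed range. The difference was 0.57 for primed over naive cultures (SE 0.14, limma adjusted p = 0.141) and 0.33 for non-primed over naive cultures (SE 0.14, limma adjusted p = 0.307). With sample weights the first of these passed, at 0.65 (limma adjusted p = 0.0256), and with the macrophage marker mean as a covariate the differences were 0.38 and 0.16 (limma adjusted p = 0.420 and 0.701). The other chaperones of these transporters did not pass either. Nptn (neuroplastin) differed by -0.06 and 0.03 and Emb (embigin) by 0.13 and 0.22 in the same comparisons, with Emb spread from 11.74 in naive 3 to 14.57 in naive 2.

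Car9, the carbonic anhydrase IX gene, had the largest differences of the 5 over naive cultures. Its rlog was 10.70, 10.87 and 10.90 in primed libraries, 10.47, 10.88 and 10.57 in non-primed libraries, and 9.13, 9.76 and 9.36 in naive libraries. The injected libraries all lay above the naive ones, and the primed values overlapped the non-primed ones. Car9 rose by 1.41 in primed over naive cultures (SE 0.17, limma adjusted p = 0.0345), or 2.65-fold, and by 1.22 in non-primed over naive cultures (SE 0.17, limma adjusted p = 0.0483), or 2.34-fold. The antisense gene Gm12454 overlaps Car9, and since the strand setting of the counting is not given in the sources used here, reads of the pair may not be separated. Gm12454 was at 4.05 to 5.09 in the 9 libraries and differed by 0.32 and 0.39 in these comparisons (limma adjusted p = 0.526 and 0.490).

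Car12, the carbonic anhydrase XII gene, differed mainly in a single naive library. Its rlog was 8.07, 7.93 and 8.09 in primed libraries, 8.03, 7.72 and 7.89 in non-primed libraries, and 8.16, 7.61 and 6.11 in naive libraries. Naive 1 was the highest of the 9 and naive 3 the lowest. The difference was 0.74 for primed over naive cultures (SE 0.43, limma adjusted p = 0.410) and 0.59 for non-primed over naive cultures (SE 0.43, limma adjusted p = 0.562). Without naive 3 these differences were 0.15 and -0.0031. Car9 exceeded Car12 on the per-length scale in each of the 9 libraries, by 4.51 ± 0.15 in primed, 4.48 ± 0.37 in non-primed and 3.84 ± 1.14 in naive libraries (log2 scale, SD, n = 3 each).

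**Figure D3:**
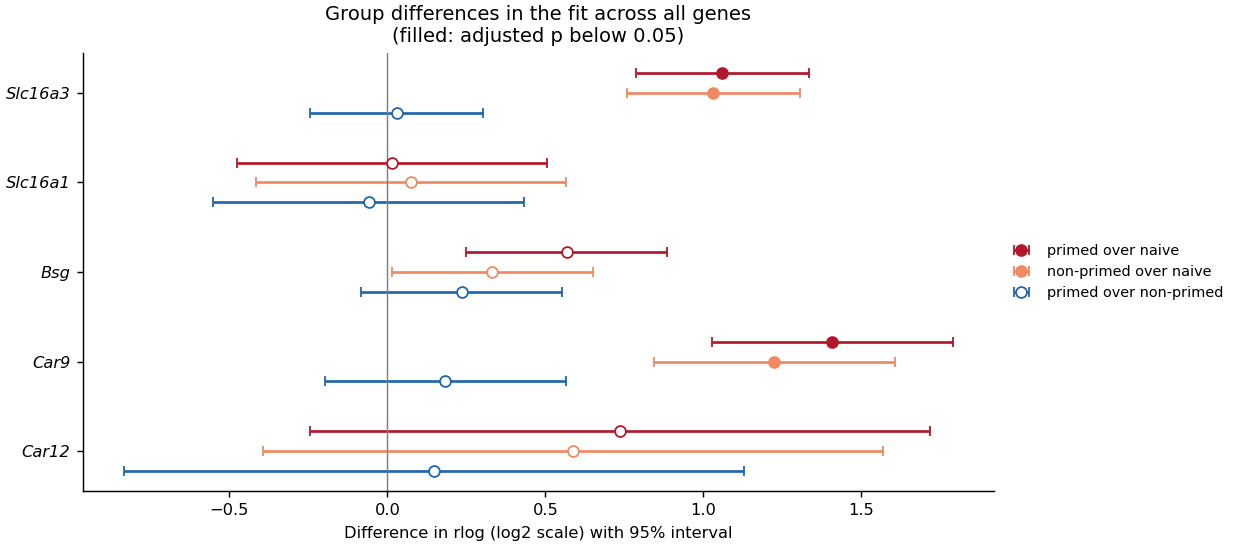
The difference in rlog (log2 scale) of each gene in the 3 comparisons, with 95% intervals from the fit across all genes, where filled points passed an adjusted p of 0.05. Slc16a3 and Car9 are filled in both comparisons with naive cultures, and no point is filled for primed over non-primed cultures.

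In count, 2 of the 5 genes rose in primed over naive cultures, where 0.096% of all tested genes were called higher, and both also rose in the non-primed over naive comparison, where 0.115% were. Since the genes were listed with these values known, nothing is read from the excess. Slc16a3, Car9 and Bsg, 3 of the 5, were higher in every primed than in every naive library, as were 8.97% of tested genes, and in every non-primed than in every naive library, as were 11.6%. The median difference of the 5 genes was 0.74 in primed and 0.59 in non-primed over naive cultures, against -0.0014 and 0.0088 over all tested genes. The median gene was Car12, and without naive 3 it was Bsg, at 0.55 and 0.32. These calls rested on few libraries. The calls of Slc16a3 and Car9 in both comparisons were lost without primed 2, primed 3 or any single non-primed library, even where that library was not in the comparison and entered only through the shared spread. The differences without 1 library stayed at 0.92 to 1.17 for Slc16a3 and 1.08 to 1.58 for Car9.

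No member passed between primed and non-primed cultures. The difference for primed over non-primed cultures was 0.03 for Slc16a3 (95% interval -0.24 to 0.30), 0.18 for Car9 (-0.20 to 0.56), 0.24 for Bsg (-0.08 to 0.55), -0.06 for Slc16a1 (-0.55 to 0.43) and 0.15 for Car12 (-0.83 to 1.13). The limma adjusted p was 1.00 for each of the 5, and 0% of all tested genes did, with 197 genes at an unadjusted p below 0.05. No member separated the groups without overlap, which 11.6% of tested genes did in either direction. With the replicate number as a block, in a fit of the 6 injected libraries alone, the smallest adjusted p among the members was 0.520, for Car9. With sample weights 2109 genes passed, among them Car9 at 0.38 (limma adjusted p = 0.0194) and Bsg at 0.28 (limma adjusted p = 0.0197). The intervals use no pairing and a spread shared with the naive libraries, so they are no limit of detection between the injected groups. For Car12 the SE was 0.43 with all 9 libraries and 0.11 in a fit of the 6 injected libraries without the block. Without 1 library at a time the difference was 0.10 to 0.30 for Car9, the lowest without non-primed 1 and the highest without non-primed 2, and 0.07 to 0.22 for Car12, the lowest without non-primed 2 and the highest without non-primed 1.

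The macrophage markers moved with the injected groups. Their mean in naive 2, 9.73, lay within the range of the primed libraries. In that library Slc16a3 was at 11.52 and Car9 at 9.76, below all 6 injected libraries. Primed 3 had the lowest marker mean of the injected libraries, 9.46, with Slc16a3 at 12.62 and Car9 at 10.90. These are values of single libraries, from which no cause is read. With the marker mean as a covariate, Slc16a3 differed by 0.99 (SE 0.18) in primed and 0.96 (SE 0.17) in non-primed over naive cultures, and Car9 by 1.04 (SE 0.19) and 0.89 (SE 0.18). None of these passed (limma adjusted p = 0.276 for both genes in primed, and 0.171 for Slc16a3 and 0.190 for Car9 in non-primed, over naive cultures), and 1 gene in all passed in each comparison of that fit. Of all 15623 tested genes, 7780 were higher in primed and 8071 in non-primed over naive cultures. All 15 markers were higher in both injected groups, by a median of 2.01 in primed and 1.84 in non-primed over naive cultures, and 0 of the 15 passed. Beside these, the 4 tested skeletal muscle markers had a mean of 4.90 to 6.42 in primed, 5.41 to 6.26 in non-primed and 4.55 to 4.84 in naive libraries, with 0 past the threshold. The 4 tested adipocyte markers had a mean of 5.16 to 6.48 in primed, 5.08 to 5.40 in non-primed and 5.23 to 8.28 in naive libraries, with 0 past it and naive 3 inside the range of the injected libraries. The mean of 5 tested Schwann cell markers was 7.63 to 8.56 in primed and 8.22 to 8.78 in non-primed libraries. In naive libraries it was 6.46 to 8.79. For 4 tested endothelial markers the mean was 5.25 to 5.66 in primed, 5.20 to 5.54 in non-primed and 4.57 to 5.52 in naive libraries. In both lists 0 passed. The epithelial keratin gene Krt7, the 1 tested marker of its list, rose by 1.72 in non-primed over naive cultures (limma adjusted p = 0.0483). In primed over naive cultures it differed by 1.06 (limma adjusted p = 0.123). The part of these cell types in the values of the 5 genes was not tested, beyond the macrophage covariate.

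**Figure D4:**
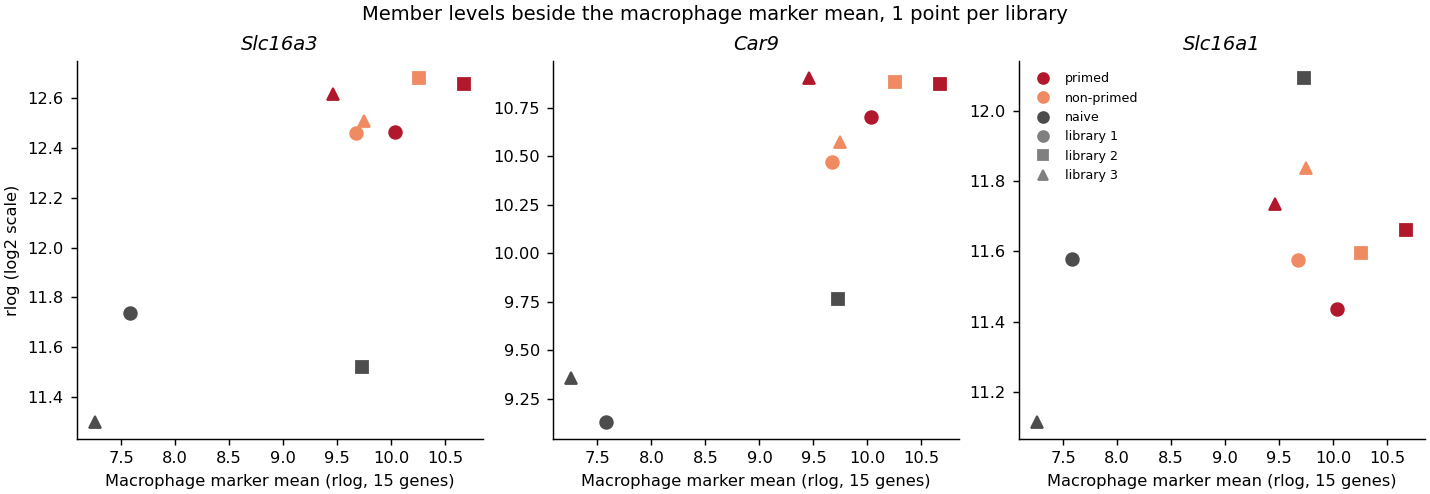
The rlog (log2 scale) of Slc16a3, Car9 and Slc16a1 in each library against the mean rlog of 15 macrophage markers, coloured by group with marker shapes for library numbers. The naive 2 square, at a marker mean of 9.73, lies below the injected libraries for Slc16a3 and Car9 and above them for Slc16a1.

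No other gene on the lists of lactate and pH genes passed the threshold. Among 14 tested genes of lactate transport and lactate dehydrogenase (of 17), 0 passed in either comparison with naive cultures, and the median difference was 0.14 for primed and 0.10 for non-primed over naive cultures. Their smallest p-values were those of Ldha, which encodes the lactate dehydrogenase subunit that favours making lactate, and Slc16a10, an aromatic amino acid transporter of the same family. Ldha was at 14.64, 14.59 and 14.60 in primed, 14.47, 14.67 and 14.52 in non-primed, and 14.33, 14.03 and 14.06 in naive libraries, with no overlap of injected and naive values. It differed by 0.47 (SE 0.12, limma adjusted p = 0.142) and 0.41 (SE 0.12, limma adjusted p = 0.175), and Slc16a10 by 0.76 (SE 0.26) and 0.67 (SE 0.26), short of the threshold. Next in primed over naive cultures was Mpc2, a subunit of the mitochondrial pyruvate carrier, at -0.35 (SE 0.16), and in non-primed over naive cultures Slc16a13 at -0.39 (SE 0.22).

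Of the other carbonic anhydrases, 7 of 14 were tested and 0 passed. Car5b, the mitochondrial form, differed by -0.29 (SE 0.16) in primed and -0.45 (SE 0.16) in non-primed over naive cultures, and Car6, the secreted form, by 0.82 (SE 0.53) and 1.09 (SE 0.53). Car7 in primed over naive cultures, at 0.15 (SE 0.19), and Car11 in non-primed over naive cultures, at -0.18 (SE 0.18), came next. None of 9 tested sodium-proton exchanger genes and partners (of 14) passed, and 7 of the 9 were lower in each comparison, with medians of -0.26 for both. Of all 15623 tested genes, 7843 were lower in primed and 7552 in non-primed over naive cultures. Chp1, a cofactor of the exchangers, differed by -0.24 (SE 0.10) and -0.26 (SE 0.10). Slc9a5, a sodium-proton exchanger, differed by -0.29 (SE 0.17) in primed and -0.27 (SE 0.17) in non-primed over naive cultures.

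Bicarbonate transporters, 7 tested of 10, had 0 past the threshold and medians of -0.05 and -0.08. Slc4a7, a sodium bicarbonate cotransporter, differed by -0.40 (SE 0.15) in primed and -0.29 (SE 0.15) in non-primed over naive cultures, Slc4a4, another such cotransporter, by 0.33 (SE 0.16) and 0.35 (SE 0.16), and the anion exchanger Slc4a2 by -0.12 (SE 0.07) and -0.11 (SE 0.07). Among proton-sensing receptors and channels, 6 tested of 10, 0 passed. Gpr65, an acid-sensing receptor of leukocytes, differed by 1.24 (SE 0.38) and 1.14 (SE 0.38). Its naive values were 4.08, 5.39 and 4.04, and the part of macrophages in its values was not tested. Pacc1, a proton-activated chloride channel, differed by 0.28 (SE 0.12) and 0.29 (SE 0.12), and the proton channel Hvcn1 by 0.61 (SE 0.27) and 0.48 (SE 0.27). In primed over non-primed cultures 0 genes of these lists passed.

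The list of oxygen-responsive comparison genes held 18 genes linked to low oxygen, among them the HIF subunit genes Hif1a, Epas1 and Arnt. Of these 18, 3 rose in primed over naive cultures and 3 in non-primed over naive cultures. Among all tested genes 0.096% and 0.115% were called higher. In each comparison 16 of the 18 were higher, with medians of 0.58 and 0.53, against 7780 and 8071 higher of all 15623 tested genes. Bnip3, a mitophagy receptor, rose by 0.70 (SE 0.09) in primed and 0.76 (SE 0.09) in non-primed over naive cultures. Its rlog was 12.35, 12.21 and 12.33 in primed, 12.29, 12.27 and 12.49 in non-primed, and 11.65, 11.61 and 11.51 in naive libraries, with no overlap of injected and naive values. Ndrg1, a stress-responsive gene, rose by 0.66 (SE 0.08) and Fam162a, a mitochondrial protein gene, by 0.78 (SE 0.11) in primed over naive cultures. Pdk1, whose kinase keeps pyruvate out of the mitochondrial acetyl-CoA pool, rose by 0.70 (SE 0.09) and Egln1, the oxygen-sensing prolyl hydroxylase, by 0.51 (SE 0.07) in non-primed over naive cultures. Next after these, and short of the threshold, came Egln1 in primed over naive cultures at 0.51 (limma adjusted p = 0.0519) and Fam162a in non-primed over naive cultures at 0.71 (limma adjusted p = 0.0576). Hif1a, which encodes a HIF subunit, differed by 0.67 (SE 0.13, limma adjusted p = 0.100) in primed and 0.82 (SE 0.13, limma adjusted p = 0.0583) in non-primed over naive cultures. The list was chosen with earlier results known, so nothing is read from these counts. In primed over non-primed cultures 0 of the 18 passed.

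**Figure D5:**
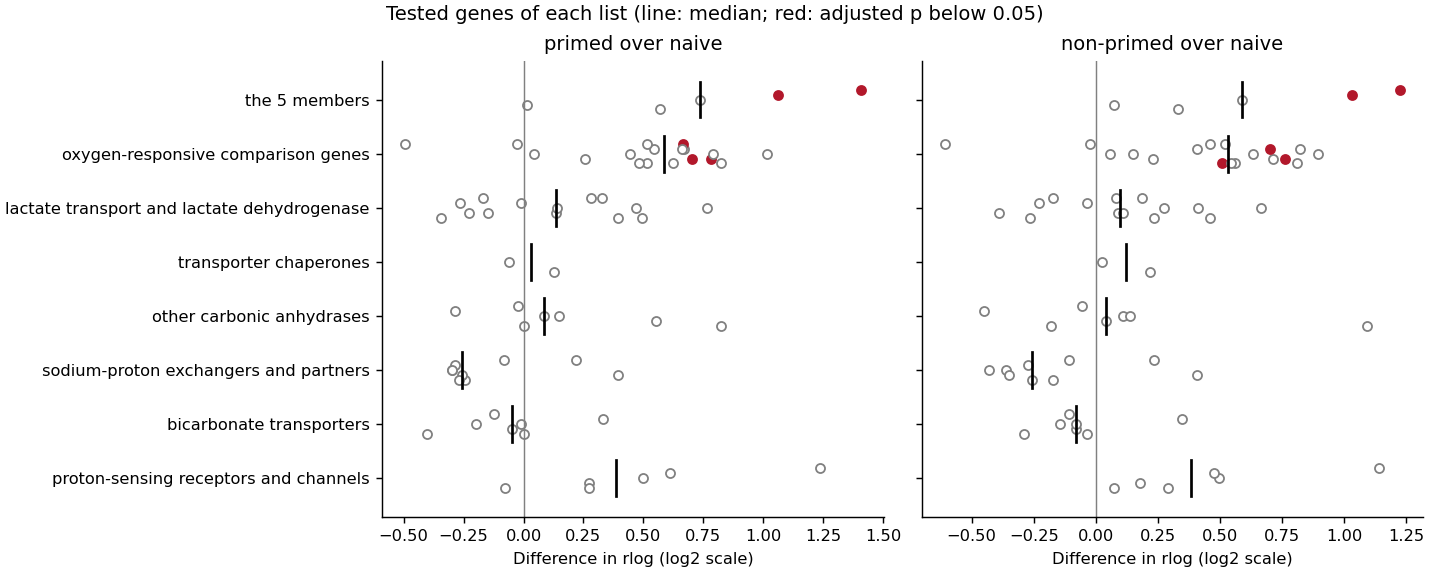
The difference in rlog (log2 scale) of each tested gene of 8 lists in primed over naive, left, and non-primed over naive cultures, right, with lines at list medians and red points for an adjusted p below 0.05. Red points appear among the 5 members (2 in each panel) and the oxygen-responsive genes (3 in each panel), and the exchanger list has its median at -0.26.

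The profiles most like each member were found by the root mean square difference between gene-centred rlog values over the 9 libraries, as a description with no test. For Slc16a3 they were those of Zfp941 at 0.14, Eno1, a glycolytic enolase, at 0.14, and P4ha2, a collagen prolyl hydroxylase, at 0.15, where the median over all tested genes was 0.54. Eno1 has close copies that may share reads. For Car9 they were Glt1d1 at 0.19, Arfgef3 at 0.20 and Stra6l at 0.21, against a median of 0.68. For Bsg they were Ctsa, the lysosomal cathepsin A gene, the microRNA gene Mir27b and Hilpda, a lipid droplet gene known to respond to low oxygen, at 0.08 each, against a median of 0.32. Car12 lay nearest to Dglucy at 0.12, Dcxr at 0.14 and Psrc1 at 0.16, against a median of 0.63, and each of these also had its lowest value in naive 3. Slc16a1 lay nearest to Btbd3 at 0.06, Stk33 at 0.08 and B3gnt4 at 0.09, against a median of 0.32, each highest in naive 2 and lowest in naive 3. Between members, Car9 and Slc16a3 were the closest pair at 0.26, and the other pairs lay at 0.31 to 0.65.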

How the data were processed

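RNA sequencing of 9 cultures was deposited by the authors as a single table of rlog values on a log2 scale. Per the submitters' processing notes, the genome was GRCm38 and the tools were DESeq2, featureCounts, Subread 1.6.1, STAR 2.5.4a and cutadapt 2.5. Of their settings, strand and annotation, nothing is given in the sources used here. Symbols matched 47224 of 47729 identifiers. The rlog scale understates changes in genes with few reads, and 12134 varying genes with a mean rlog under 3 were not tested.

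Group means of all 9 libraries were modelled with limma 3.58.1 in R 4.3.3, with moderated variances and a mean-variance trend. Tests were two-sided, Benjamini-Hochberg adjustment ran over the 15623 genes tested, and the threshold was an adjusted p of 0.05. Members and lists were chosen with earlier results of these data known. The genes named are all members, from each list the genes that passed or the 3 smallest p-values (4 for oxygen-responsive genes), and the 3 nearest profiles of each member. Hif1a was named after its values were seen, and some genes that the rule names are not reported here. Alternatives changed the filter, scaling, variance model, weights, covariate, block and libraries.

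Same-numbered primed and non-primed libraries deviated together from their group means, with correlations across genes of 0.418, 0.608 and 0.100, so the numbers were taken as pairing these groups, although the design text says that a number need not mark a mouse. The third of these is at the bound of 0.1 used here. For naive libraries the numbers were not taken as pairing.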

Additional observations from a re-analysis of the deposited data

How the results depend on the processing

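The differences of Slc16a3, Car9 and Bsg over naive cultures were positive under all 19 alternatives in both comparisons, with lowest values of 0.83, 0.89 and 0.16. The calls were less stable. In primed over naive cultures 16 genes and 2 members passed, against 0 genes and 0 members with no filter on low values, no mean-variance trend or the 2 groups alone, 1 gene and 0 members with the macrophage marker covariate, and 733 genes with sample weights. Without 1 library the counts ran from 0 to 356 genes and from 0 to 2 members. In non-primed over naive cultures 22 genes and 2 members passed, against 0 and 0 with no filter, 5 and 0 with no trend, 7 and 0 with the 2 groups alone, 1 and 0 with the covariate, 13 and 1 with a robust prior, 621 genes with sample weights and 1 member with quantile normalization. Without 1 library the counts ran from 0 to 355 genes and from 0 to 2 members. In primed over non-primed cultures 0 passed, and without 1 library 0 passed, against 2109 genes and 2 members with sample weights. The cause of these shifts was not tested, beyond the fewer libraries of some fits and the more genes of the unfiltered one.

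In the fit blocked on replicate number, 51 genes passed in primed over naive, and 17 genes and 1 member in non-primed over naive cultures, where Slc16a3 was at an adjusted p of 0.0501 and Car9 at 0.0427. The numbers were not taken as pairing naive libraries with the others, so these blocked values are no paired test and a call lost there is not a weaker effect. Not every library correlated best with its own number. Between primed and non-primed libraries the block changed no call.

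The sign of Slc16a1 turned in primed over naive cultures with quantile normalization (-0.0088) and the covariate (-0.46), in non-primed over naive cultures with sample weights (-0.035) and the covariate (-0.36), and in primed over non-primed cultures with sample weights (0.10). Without 1 library it ran from -0.23 to 0.26, from -0.17 to 0.32 and from -0.12 to 0.027. Without 1 library Car12 ran from -0.0031 to 1.02 in non-primed over naive cultures, and Slc16a3 from -0.015 to 0.094 in primed over non-primed cultures. The unknown depth and 3 libraries a group limit what small differences can show.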
